A study of Mus musculus with 13 samples.

Results

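TRAV12 clonotypes were examined in TCRα repertoires of rescued Treg cells. Their members were the functional clonotypes, whose CDR3 held amino-acid letters alone, with a V gene carrying the number 12 directly after TRAV. This rule found 9041 of 78521 functional clonotypes over 13 libraries, or 11.5%, with 935656 counts. The cells came from the spleen and lymph nodes of male C57BL/6 mice of the genotype Foxp3LSL/y Cd4creERT2. In these mice a loxP-flanked Thy1.1 reporter and stop cassette keeps Foxp3 silent until an inducible Cre, expressed from the Cd4 locus, removes it. On postnatal day 14 each mouse received 1 dose of 4-hydroxytamoxifen (4-OHT), and cells were sorted as TCRβ+CD4+GFP+Thy1.1-. There were 2 libraries at 1.5 months after treatment (age 8 weeks), 4 at 3 months (age 3.5 months), 2 at 5 months (age 5.5 months) and 5 at 7 months (age 7.5 months). All groups carry the same genotype and were treated at the same age, so age and time since Foxp3 restoration cannot be told apart. Each library is taken as 1 sample, and since the labels do not say that libraries came from separate mice, p-values measure only the spread between these libraries.

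A TCRα chain is made when 1 V gene is joined to 1 J gene in a developing thymocyte. The joint, with bases lost from both ends and random bases added between them, encodes the CDR3, the loop that lies over the peptide. V genes nearer the J cluster tend to be joined first to the J genes nearest the V cluster, which carry high numbers, and later joints reach V genes farther upstream and J genes farther downstream. In C57BL/6 mice part of the V cluster exists in repeated copies, so that TRAV12 genes come as an undesignated copy, a D copy and an N copy. TRAV12 supplies the first and second loops of the receptor and the start of the third.

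All 9 named TRAV12 genes lay on chromosome 14 of GRCm38, on the plus strand, in the order D, N, undesignated, followed by the J cluster. The D copies were TRAV12D-1 (chr14:52844465-52845041), TRAV12D-2 (chr14:52915799-52916426) and TRAV12D-3 (chr14:52929789-52930282). The N copies were TRAV12N-1 (chr14:53155512-53156088), TRAV12N-2 (chr14:53226773-53227400) and TRAV12N-3 (chr14:53240745-53241244). Nearest the J genes were TRAV12-1 (chr14:53538191-53538738), TRAV12-2 (chr14:53616315-53616914) and TRAV12-3 (chr14:53621657-53622245).

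The germline bases that each gene gives to the CDR3, from the conserved cysteine codon to the end of the gene, are shown first because they set how the clonotypes begin. The capital marks position 7, counted from 1 at the first base of that codon, where the genes numbered 2 differ from TRAV12-1 (C7T).
TRAV12-1: tgtgctCtgagtga
TRAV12-2: tgtgctTtgagtga
TRAV12-3: tgtgctCtgagtga
The D and N copies carried the same 14 bases as the undesignated gene of their number. CDR3s opened with cysteine, alanine and leucine in 90.3% of TRAV12 clonotypes and in 14.4% of those with other V genes, as these bases encode. The next residue was serine in 56.4% of TRAV12 clonotypes and arginine in 15.4%.

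The copies of 1 number are hard to tell apart. D and N copies did not differ at any base of their annotated transcripts, over 436 bases for the genes numbered 1, 454 for those numbered 2 and 347 for those numbered 3. Over the last 270 bases, the undesignated copy differed from its D copy at 15 bases for number 1, at 9 for number 2 and at 8 for number 3. Values for a D or an N copy alone are therefore uncertain, and so is each name where reads did not reach a differing base. Of 1174 TRAV12 CDR3 nucleotide sequences present in more than 1 library, 620 (52.8%) carried more than 1 TRAV12 gene name, and 424 carried names of more than 1 number. Copies of 1 number, and the genes numbered 1 and 3, give the CDR3 the same germline bases. A sequence with several names can thus also come from separate joints, and the part of uncertain naming was not tested.

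Libraries shared few TRAV12 clonotypes by V, J and nucleotide sequence. Over 76 of 78 pairs the shared fraction of both lists combined was 0.455% to 2.60%. Of the other 2 pairs, 3 months replicate 4 and 5 months replicate 1 shared 68 clonotypes (8.45% and 10.97% of their lists), and 1.5 months replicate 1 and 3 months replicate 4 shared 83 (8.67% and 10.3%, in that order). These percentages are of each single list, which run higher than a fraction of both lists combined. As a fraction of both lists combined, the first of these pairs shared 5.01% and the second 4.94%, against at most 2.60% in the other 76. Both pairs include 3 months replicate 4. Leaving it out changed no call of the time comparisons or of the comparisons within libraries. Sharing under any V gene was also counted among the other 12 libraries. The difference in shared CDR3s between TRAV12 and other V genes was then -0.0074 percentage points.

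The most used gene was TRAV12-1, with 3064 clonotypes and 33.8% ± 2.04 (SD, n = 13) of TRAV12 clonotypes per library. TRAV12D-2 followed with 2030 clonotypes and 22.3% ± 1.87, and TRAV12-2 with 1737 and 19.0% ± 2.46. TRAV12D-3 held 11.4% ± 3.37, TRAV12-3 6.24% ± 2.05 and TRAV12D-1 3.73% ± 1.07. The 3 N copies were least used, at 1.56% for TRAV12N-3, 1.26% for TRAV12N-2 and 0.656% for TRAV12N-1. The ranges of TRAV12D-2 (19.0% to 25.4%) and TRAV12-2 (13.7% to 23.2%) overlapped, whereas the lowest TRAV12-1 library (29.9%) lay above the highest of every other gene. By counts the lead of TRAV12-1 was not clear. It held 23.7% ± 3.13 of TRAV12 counts (18.9% to 28.5%) and TRAV12-2 held 22.4% ± 5.32 (13.8% to 33.7%). TRAV12D-3, with 19.6% ± 5.77 of TRAV12 counts, stood above TRAV12D-2 with 16.7% ± 4.07, though their ranges overlapped. The median TRAV12D-3 clonotype had 123 counts, against 34 for TRAV12-1.

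**Figure D1:**
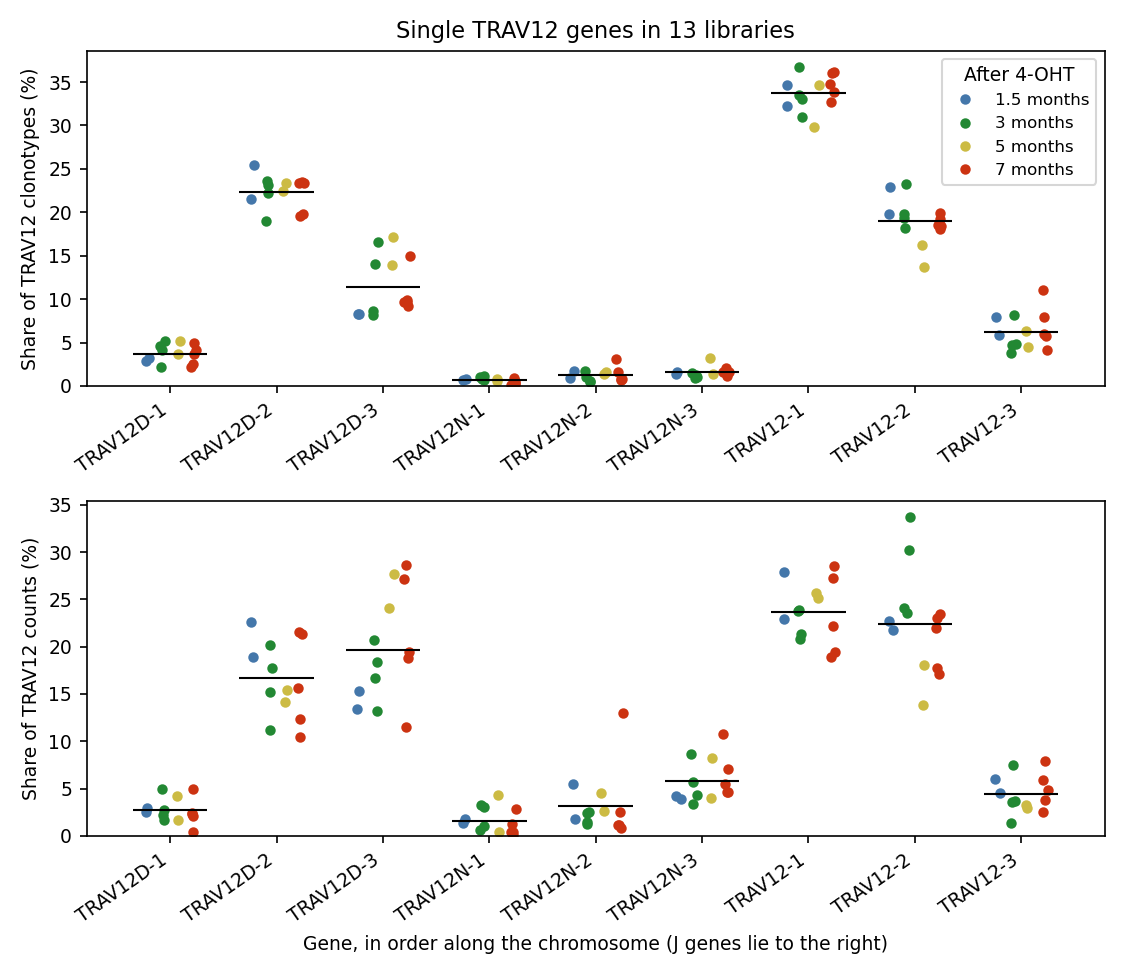
The share of TRAV12 clonotypes (upper panel, %) and of TRAV12 counts (lower panel, %) is plotted for each gene, with 1 point per library coloured by time after 4-OHT and a line at the mean of 13 libraries. TRAV12-1 lies highest by clonotypes in every library, and TRAV12D-3 and the N copies lie higher by counts than by clonotypes.

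Clonotypes named N were large. The median N clonotype of a library had 114 to 426 counts and the median D clonotype 40 to 121, and N was above D in 13 of 13 libraries. Of 3682 D or N clonotypes, 311 (8.45%) were named N, and of the 102 above 0.1% of a library's counts, 38 (37.3%) were. The part of the naming of identical copies in this difference was not tested.

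Taken as a family, TRAV12 clonotypes used J genes farther from the V cluster than other clonotypes did, with TRAV12-2 on the opposite side. The mean J number was 25.4 ± 0.448 (SD, n = 13) for TRAV12 and 27.8 ± 0.352 for other V genes. It was lower for TRAV12 in 13 of 13 libraries, with a mean difference of -2.40 and a range of -3.57 to -1.61 (exact sign-flip permutation test, two-sided, p = 2.44e-04, the smallest the test can give, Benjamini-Hochberg adjusted p = 6.71e-04 over 11 comparisons). For TRAV12-2 alone it was 32.0 to 35.4 over libraries, above the highest value of other V genes, 28.3.

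By single J genes, 11 of 43 J genes tested were used more by TRAV12 than by other V genes (25.6% of those tested) and 9 were used less (20.9%), by edgeR's quasi-likelihood test on clonotype numbers at a Benjamini-Hochberg adjusted p under 0.05. Among the J genes used more, TRAJ5 had the smallest p (chr14:54213777-54213838) and took 1.72% ± 0.780 of TRAV12 clonotypes and 0.740% ± 0.149 of others, a log2 fold change of 1.19 ± 0.16 (SE) and an edgeR adjusted p of 1.57e-07. Its share was higher with TRAV12 in 12 of 13 libraries. TRAJ7, TRAJ4 and TRAJ2, its neighbours at the far end of the J cluster, were higher by 0.58, 0.54 and 0.66 on the log2 scale, each in 12 of 13 libraries. TRAJ32, nearer the middle, was higher by 0.36.

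The 5 J genes with the smallest p among those used less lay at the end of the J cluster nearest the V genes. TRAJ56 (chr14:54159263-54159325) took 0.657% ± 0.294 of TRAV12 clonotypes and 1.66% ± 0.137 of others, a log2 fold change of -1.31 ± 0.16 (SE) and an edgeR adjusted p of 5.97e-08, and was lower with TRAV12 in every one of the 13 libraries. TRAJ53, TRAJ52, TRAJ49 and TRAJ47 had log2 fold changes of -0.80, -0.78, -0.53 and -0.85. On summed counts in place of clonotype numbers the test called 3 J genes, 1 higher and 2 lower, and with at least 2 counts per clonotype it called 17, 7 higher and 10 lower.

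**Figure D2:**
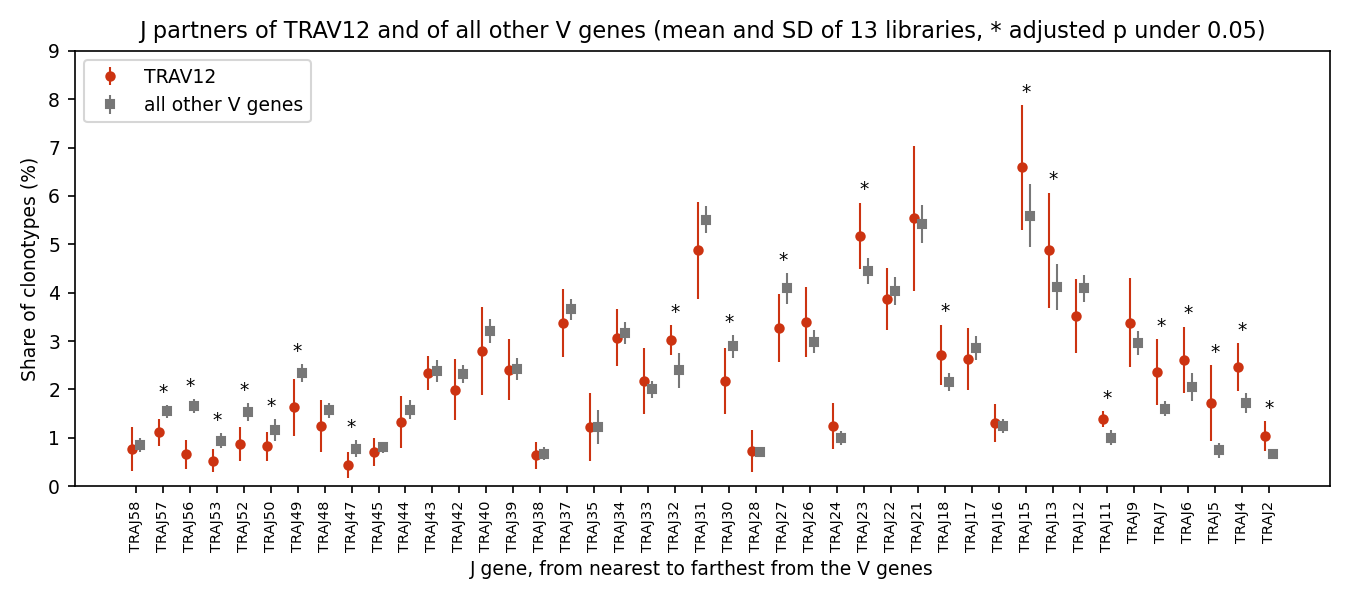
The share of clonotypes (%) using each J gene is plotted for TRAV12 (circles) and all other V genes (squares) as mean and SD of 13 libraries, with J genes ordered from nearest to farthest from the V genes and an asterisk where the edgeR adjusted p was under 0.05. TRAJ56 lies lower for TRAV12 at 0.657% against 1.66%, and TRAJ5 higher at 1.72% against 0.740%.

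Within the family, J partners separated the copies of the genes numbered 2. The mean J number was 33.8 ± 0.838 for TRAV12-2, which lies in the block nearest the J cluster, and 19.5 ± 0.941 for TRAV12D-2. The difference of 14.3 held in 13 of 13 libraries, with a range of 12.4 to 16.9. J genes numbered 41 and above made up 28.0% of TRAV12-2 clonotypes and 5.52% of TRAV12D-2 clonotypes, and J genes numbered 2 to 20 made up 11.4% and 55.7%. TRAV12-1 had a mean J number of 25.2 ± 0.591 and TRAV12D-1 of 21.7 ± 2.73, a difference of 3.51 that was positive in 11 of 13 libraries. TRAV12-3 (25.5 ± 2.65) and TRAV12D-3 (25.8 ± 1.72) differed by -0.27, with 7 of 13 libraries positive and single libraries between -5.57 and 2.99. These gene pairs were set side by side after their values had been seen, and no test is given. Pooled by copy, undesignated genes exceeded D copies by 6.45 in 13 of 13 libraries (adjusted p = 6.71e-04) and N copies by 5.53 in 12 of 13 (adjusted p = 8.95e-04), both by the same exact permutation test.

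**Figure D3:**
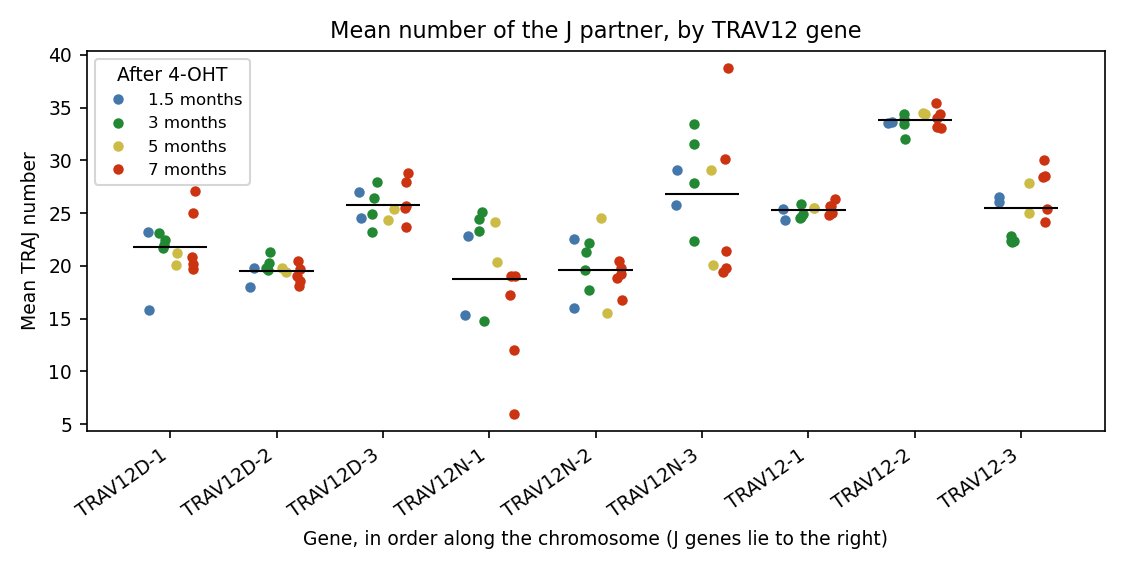
The mean number of the J partner is plotted for each TRAV12 gene, in the order of the genes along the chromosome, with 1 point per library coloured by time after 4-OHT and a line at the mean. TRAV12-2 lies at 33.8 and TRAV12D-2 at 19.5 with no overlap between libraries, whereas the genes numbered 3 overlap.

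Over the whole family, TRAV12 CDR3s were slightly longer and carried more inserted bases than those of other V genes in the same library. Their mean length was 13.6 ± 0.0541 amino acids against 13.5 ± 0.0239, a difference of 0.0956 that was positive in 12 of 13 libraries (exact sign-flip permutation test, p = 4.88e-04, adjusted p = 8.95e-04). Between the V and J segments lay 2.33 ± 0.134 inserted bases against 2.13 ± 0.0490, higher by 0.196 in 13 of 13 libraries (exact permutation, adjusted p = 6.71e-04). Not every gene shared this. Pooled over libraries, inserted bases averaged 2.44 for TRAV12-1, 2.38 for TRAV12-2, 2.36 for TRAV12-3 and 2.27 for TRAV12D-2. They averaged 2.12 for TRAV12D-3, 2.10 for TRAV12D-1 and 1.58 to 1.96 for the N copies, under the 2.13 of other V genes. TRAV12D-1 and TRAV12N-1, at 13.2 amino acids, and TRAV12N-2, at 13.4, were also shorter than the mean of other V genes. Clonotypes without inserted bases made up 27.2% ± 2.14 of TRAV12 and 31.4% ± 0.985 of other clonotypes, a difference of -4.18 percentage points, negative in every one of the 13 libraries (exact permutation, adjusted p = 6.71e-04). The mean net charge of the CDR3 was 0.769 for TRAV12 and 0.705 for other V genes, higher by 0.0642 in 12 of 13 libraries (exact permutation, adjusted p = 0.00115). An internal cysteine, a residue counted here between the conserved ends, was present in 1.10% of TRAV12 and 1.07% of other CDR3s. That difference missed the threshold (exact permutation, adjusted p = 0.892), with single libraries from -0.703 to 1.42 percentage points.

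**Figure D4:**
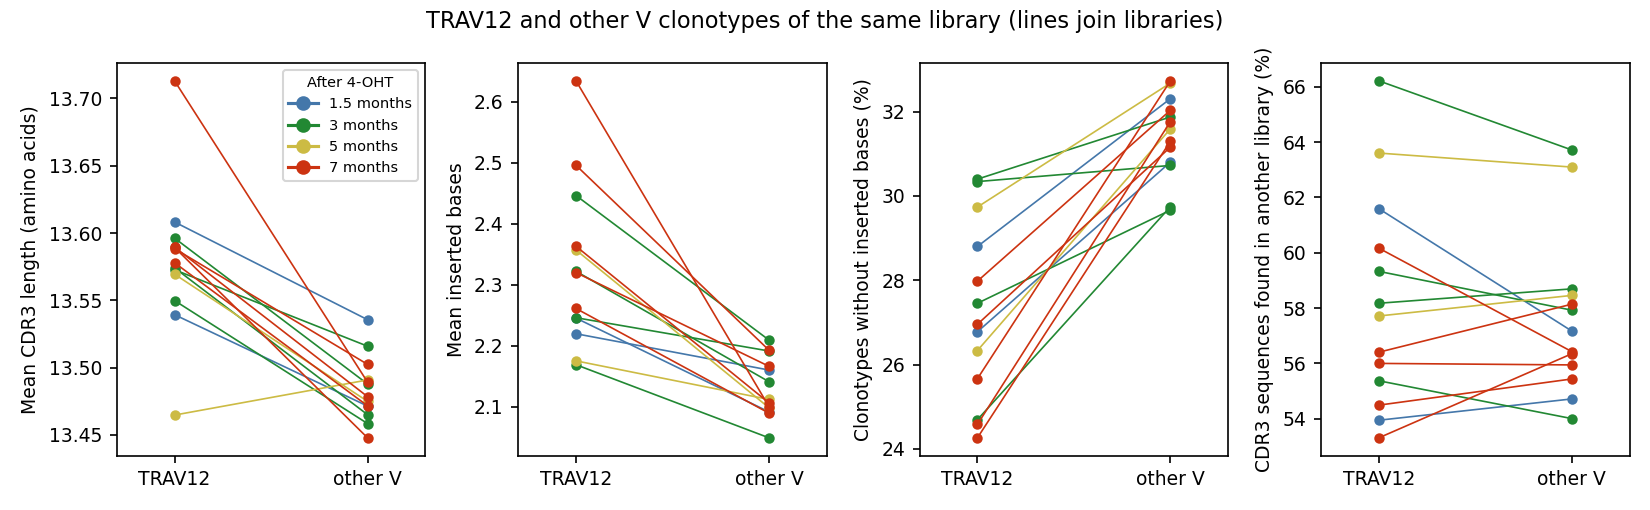
Each line joins the TRAV12 value and the value of all other V genes of 1 library, coloured by time after 4-OHT, for mean CDR3 length (amino acids), mean inserted bases, clonotypes without inserted bases (%) and CDR3 sequences found in another library (%). TRAV12 lies above other V genes for inserted bases and below for clonotypes without them in all 13 libraries, while the lines for sharing cross. Sharing counts a match with any V gene.

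The largest TRAV12 clonotypes are shown by their CDR3 nucleotide sequences, the leading 2 of each time point, with the inserted bases in capitals. They are not the 8 largest of the series, since 1 clonotype of 3 months replicate 1 held 0.735% of its counts.
TRAV12-2 and TRAJ37, 1.5 months: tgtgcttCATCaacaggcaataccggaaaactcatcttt
TRAV12N-3 and TRAJ17, 1.5 months: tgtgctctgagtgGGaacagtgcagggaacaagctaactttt
TRAV12-2 and TRAJ27, 3 months: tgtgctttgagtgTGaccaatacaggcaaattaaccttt
TRAV12-2 and TRAJ43, 3 months: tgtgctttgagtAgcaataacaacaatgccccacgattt
TRAV12-2 and TRAJ49, 5 months: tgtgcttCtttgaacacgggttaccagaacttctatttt
TRAV12-2 and TRAJ37, 5 months: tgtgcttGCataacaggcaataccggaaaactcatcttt
TRAV12N-2 and TRAJ15, 7 months: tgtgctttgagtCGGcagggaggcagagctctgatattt
TRAV12D-2 and TRAJ44, 7 months: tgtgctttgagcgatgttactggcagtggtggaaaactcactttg
The clonotype of TRAV12-2 and TRAJ27 held 1.81% of the functional counts of 3 months replicate 4 (95% Wilson interval 1.77% to 1.84%, counting error only). It made up 14.1% of that library's TRAV12 counts and was also present in 5 other libraries, with at most 30 counts in any of them. That of TRAV12-2 and TRAJ43 held 1.36% (1.33% to 1.38%) of 3 months replicate 2. At 1.5 months the leading clonotype, of TRAV12-2 and TRAJ37, held 0.172% (0.162% to 0.183%). The leaders at 5 months, of TRAV12-2 and TRAJ49, and at 7 months, of TRAV12N-2 and TRAJ15, held 0.522% and 0.800%. TRAV12-2 supplied 5 of these 8 clonotypes, and 19.2% of all TRAV12 clonotypes.

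There were 173 TRAV12 clonotypes above 0.1% of functional counts, 14.1% of all such clonotypes, while TRAV12 made up 11.5% of all functional clonotypes. Per library, 2.05% of TRAV12 and 1.57% of other clonotypes were that large. The difference of 0.478 percentage points, positive in 9 of 13 libraries, missed the threshold (exact sign-flip permutation test, adjusted p = 0.167), and without 5 months replicate 2, which held 33 of the 173, it was 0.195. The median clone size was 62.1 counts for TRAV12 and 56.5 for other V genes. The log2 ratio of 0.11, positive in 8 of 13 libraries, missed it too (exact permutation, adjusted p = 0.153). It was 0.148 and passed without 1.5 months replicate 2 (exact permutation, adjusted p = 0.043), and was 0.0709 without 5 months replicate 2. Of the 173 large clonotypes, TRAV12D-3 supplied 49, TRAV12-2 40, TRAV12-1 31 and TRAV12N-3 26. In the same order, these genes made up 11.2%, 19.2%, 33.9% and 1.53% of all TRAV12 clonotypes. The most frequent J gene of the large clonotypes was TRAJ37 with 17, and it took 3.37% of TRAV12 clonotypes per library. These differences were not tested. Both libraries at 1.5 months held few, 3 and 5, whereas later libraries held 7 to 33. Their share of TRAV12 counts was 2.97% and 7.14% at 1.5 months. It was 24.7%, 28.9%, 12.8% and 25.8% at 3 months, 26.4% and 30.1% at 5 months, and 13.7%, 26.9%, 30.7%, 27.7% and 32.5% at 7 months. Every later library thus lay above both at 1.5 months. The difference from 1.5 months was 18.0, 23.2 and 21.2 percentage points at 3, 5 and 7 months (exact permutation test, two-sided, p = 0.0339, 0.0222 and 0.0147). After Benjamini-Hochberg adjustment over 9 comparisons these exact values were 0.102, 0.10 and 0.10, which missed the threshold. Without 7 months replicate 1 the difference at 7 months was 24.4 percentage points and passed (exact permutation, adjusted p = 0.0257). For other V genes the share averaged 13.4%, 18.0%, 24.2% and 25.1% in order of time, and there too every later library (15.7% or more) lay above both at 1.5 months (12.3% and 14.5%). The same difference for TRAV12 minus other V genes, 13.4, 12.5 and 9.61 percentage points, missed it as well (exact permutation p = 0.118, 0.236 and 0.284). At 5 months it rested on libraries of opposite sign. TRAV12 minus other V genes was -3.15 and 11.3 percentage points there, and -9.38 and -7.41 at 1.5 months. The share of counts in clonotypes above 0.1% was added as a measure after the data had been seen.

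The inverse Simpson index within TRAV12, the effective number of equally large clonotypes, was 405 and 264 at 1.5 months. It was 87.9, 62.5, 241 and 43.0 at 3 months, 119 and 188 at 5 months, and 171, 128, 114, 105 and 106 at 7 months. All later libraries lay below both at 1.5 months. The differences were -226 at 3 months, -181 at 5 months and -209 at 7 months (exact permutation p = 0.0152, 0.0586 and 0.0198, Benjamini-Hochberg adjusted p = 0.149, 0.176 and 0.149 over 15 comparisons). Single libraries decided these values. Without 1.5 months replicate 1, which leaves 1 library at that time, the differences at 3, 5 and 7 months were -155, -110 and -139. Of the libraries left out in turn, the differences at 3 and 7 months passed only without 3 months replicate 3 (exact permutation adjusted p = 0.00442 and 0.0242). Under the other alternatives, the log2 scale among them, the adjusted exact permutation p was 0.0756 to 0.333 at both times.

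The number of TRAV12 clonotypes averaged 854 ± 146 (SD, n = 2) at 1.5 months, 749 ± 97.7 (n = 4) at 3 months, 593 ± 38.2 (n = 2) at 5 months and 630.2 ± 88.7 (n = 5) at 7 months. The differences from 1.5 months had exact permutation p-values of 0.448, 0.0542 and 0.0491 and adjusted values of 0.766, 0.176 and 0.176. Without 1.5 months replicate 1, which leaves 1 library at that time, the differences were -2, -158 and -120.8. Counting only clonotypes with at least 2 counts, the differences were -222 at 5 months and -206 at 7 months, with adjusted exact permutation p-values of 0.00808 and 0.00505.

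The TRAV12 share of functional clonotypes varied little, from 11.8% ± 0.286 at 1.5 months to 11.2% ± 0.555 at 7 months, a difference of -0.62 percentage points (exact permutation p = 0.300). By counts the share was 10.5% ± 1.49, 12.2% ± 1.42, 13.9% ± 3.69 and 12.2% ± 1.68 in order of time, and none of the differences passed (exact permutation adjusted p = 0.538 to 0.766). The difference at 5 months, 3.398 percentage points, was 0.790 without 5 months replicate 2 and 6.01 without 5 months replicate 1. Those at 3 and 7 months, 1.68 and 1.69, were 0.621 and 0.629 without 1.5 months replicate 2 and 2.73 and 2.74 without 1.5 months replicate 1. The mean CDR3 length of TRAV12 was 13.5 to 13.7 amino acids in all libraries, with adjusted exact permutation p-values of 0.766 to 1.

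**Figure D5:**
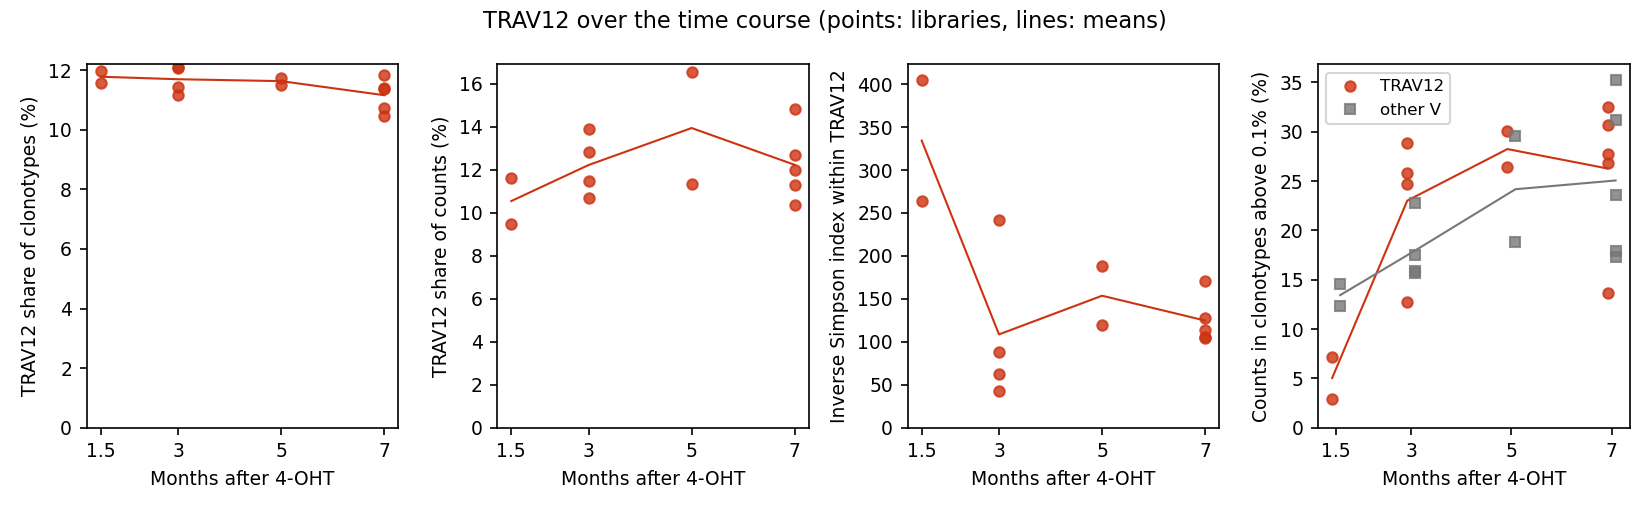
TRAV12 values are plotted against months after 4-OHT, with 1 point per library and lines through the means: the share of clonotypes (%), the share of counts (%), the inverse Simpson index, and the share of counts in clonotypes above 0.1% (%) with other V genes in grey. Both libraries at 1.5 months have the highest index, 264 and 405, and the lowest TRAV12 share in large clonotypes, 2.97% and 7.14%.

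None of 90 single V genes tested passed at 7 against 1.5 months or at 7 against 3 months (edgeR, background 0% called in both), with 6 and 1 genes at an unadjusted p under 0.05, and DESeq2 called 0 as well. The TRAV12 gene with the smallest p at 7 against 1.5 months was TRAV12-2, with a log2 fold change of -0.27 ± 0.12 (SE), an unadjusted p of 0.0328 and an edgeR adjusted p of 0.492. On summed counts its direction turned, to a log2 fold change of 0.20. Its share of TRAV12 clonotypes was 19.7% and 22.9% at 1.5 months and 18.0%, 19.97%, 18.6%, 18.4% and 19.2% at 7 months, so the groups overlapped. TRAV12N-1 was removed by the filter on low numbers. Of 33 J genes tested within TRAV12, edgeR called none in either contrast (0%), with 2 and 1 at an unadjusted p under 0.05, and DESeq2 called 0.

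Of 5428 distinct TRAV12 CDR3 amino-acid sequences, 3984 (73.4%) were found in 1 library, against 71.7% for other V genes. Of the rest, 1374 were found in 2 to 6 libraries and 70 in 7 to 12. Sequences in exactly 7 libraries made up 0.553% of those of TRAV12 and 0.779% of those of other V genes. In exactly 10 libraries the shares were 0.111% and 0.270%. The share was lower for TRAV12 at every number of libraries from 3 up and higher at 1 and 2, which was not tested. None reached all 13, and of 37085 sequences of other V genes 60 (0.162%) did, a difference that was not tested. In a given library, 58.2% ± 3.90 of TRAV12 CDR3s were found in another library with any V gene. For CDR3s of other V genes it was 57.7% ± 2.91, and the difference did not pass the test (exact permutation adjusted p = 0.482). A TRAV12 CDR3 found elsewhere only with another V family counted as shared here, unlike in the shares above, taken within each set. Sharing per library within each set was not tested. The difference of 0.48 percentage points turned to -0.132 with at least 2 counts per clonotype and to -2.08 when weighted by counts. The number of nucleotide sequences behind 1 amino-acid sequence averaged 1.04 for those in 1 library, 2.29 for those in 3 and 4.53 for those in 7.

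The CDR3 amino-acid sequence that reached 12 libraries used TRAJ6. Of its 22 rows, 18 had no inserted bases. Its most widespread nucleotide form, found in 11 libraries, is shown as the most shared TRAV12 joint.
TRAV12 and TRAJ6, 11 libraries: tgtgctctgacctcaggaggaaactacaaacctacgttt
It was encoded by 7 nucleotide sequences under 6 TRAV12 gene names. Among the libraries that held it, its share of counts ran from 0.0106% in 7 months replicate 2 to 0.0948% in 3 months replicate 4, with a mean of 0.0513% ± 0.0273. It was not seen in 3 months replicate 1, where 3 counts correspond to 4.02e-04%. Of all TRAV12 CDR3 amino-acid sequences, 1086 were also found with another V family.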

How the data were processed

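TCRα cDNA of sorted cells was amplified by 5′ RACE and sequenced on a MiSeq. The authors aligned reads and assembled clonotypes with MiXCR, applied a frequency-based error correction in VDJtools, and deposited raw counts and the fraction of each clonotype, with the positions where V ends and J starts. The labels name GRCm38, and gene positions were taken from GENCODE annotation of that build. Whether counts are reads or molecules is not stated. Deposited fractions were not used in tests. Non-functional clonotypes were removed here. Total counts per library were 509818 to 936831, so that 3 counts correspond to 3.40e-04% to 6.29e-04% of functional counts, and intervals cover counting error only.

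Inserted bases were those between the V end and J start. Time points were compared with 1.5 months by two-sided exact permutation over 540540 arrangements with the maximum over 3 comparisons. TRAV12 and other V clonotypes of a library were compared by exact sign flips (8192 arrangements). Gene use was tested with edgeR 4.0.16 (TMM, low-count filter) and DESeq2 1.42.0 as an alternative, in R 4.3.3. Other values came from Python 3.11.15, numpy 2.4.6, pandas 2.3.3 and scipy 1.17.1. Scripts were tested on simulated data. P-values were adjusted by Benjamini-Hochberg, with a threshold of 0.05. Named genes were all TRAV12 genes, up to 5 J genes per direction with the smallest adjusted p, the 2 largest clonotypes per time point and the most shared CDR3. Alternatives changed depth, minimum counts, scale, weighting, normalization and filters, or left out libraries. The members, lists and rules were chosen with earlier results of these data known.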

Additional observations from a re-analysis of the deposited data

Results flagged for a closer look

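In 48 sets of 4 or 5 libraries, 4 had 1 library far from the others, and chance alone marks about 1 in 20. The mean J number of TRAV12 minus other V genes was -1.61 in 3 months replicate 3, against -2.59 to -2.43 in the other libraries of that group. The log2 ratio of the median clone size was -0.19 in 3 months replicate 1, against 0.12 to 0.18. The mean TRAV12 CDR3 length was 13.7 amino acids in 7 months replicate 3, against 13.58 to 13.59. TRAV12D-3 made up 14.98% of TRAV12 clonotypes in 7 months replicate 2, against 9.19% to 9.89%.

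Non-functional TRAV12 rows, which entered no comparison, numbered 1435 (13.7% of TRAV12 rows, against 13.03% for other V genes) and held 64255 counts. TRAV12-4, which had no functional row, had 10 non-functional rows with 32 counts over 8 libraries.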

How the results depend on the processing

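The comparisons of TRAV12 with other V genes in length, inserted bases, clonotypes without them, net charge and J number kept their direction and passed under every alternative run, with adjusted p-values from 6.71e-04 to 0.0116 apart from single libraries left out. With at least 2 counts per clonotype, the TRAV12 clonotype number passed at 5 months (-222) and 7 months (-205.6), and the cause was not tested. Differences near 0 changed sign without passing. The CDR3 length at 3 months was 0.0141 with at least 2 counts and 0.00241 without clonotypes 100 times larger elsewhere. The difference in shared CDR3s was -0.132 with at least 2 counts, -2.08 weighted by counts and -0.0074 among 12 libraries, an alternative chosen after seeing the data. The J numbers of TRAV12-3 minus TRAV12D-3 differed by 0.327 weighted by counts. In summed counts at 7 against 1.5 months, log2 fold changes were 0.15 for TRAV12-1, 0.20 for TRAV12-2 and 0.20 for TRAV12-3, and at 7 against 3 months 0.075 for TRAV12-1, 0.048 for TRAV12D-2 and 0.34 for TRAV12D-3. TRAV12-3 was at 0.10 with copies merged, TRAV12D-1 at -0.052 with at least 2 counts and TRAV12N-2 at -0.039 by DESeq2. J genes called with TRAV12 against other V genes were 3 on summed counts, and 17 with at least 2 counts, of which 7 were higher and 10 lower against 11 and 9 over all clonotypes.

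The replicate numbers gave no clear sign of pairing the libraries. Over 14 pairs of the same number, deviations in single V gene use correlated at -0.345 to 0.198. The correlation was 0.42 for mean CDR3 length, 0.20 for the share of counts and -0.0996 to -0.0167 for the other 3 time measures. Of 12 libraries, 1 correlated best with its own number. These few overlapping pairs cannot exclude that the numbers mark paired libraries. With the number as a replicate block, the clonotype share at 3 months differed by 0.147, TRAV12N-3 by -0.0056 on the log2 scale, and 1 V gene, not of TRAV12, was called at 7 against 1.5 months.

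Leaving out single libraries gave ranges. At 3 months, the clonotype share differed by -0.286 to 0.118, the inverse Simpson index by -296 to -155 and the length by -0.035 to 0.0339. The share at 5 months ran from -0.349 to 0.0547, and the index from -251 to -110 at 5 months and from -280.001 to -139 at 7 months. The internal cysteine ran from -0.091 to 0.0858, and the log2 ratio of median clone size, 0.11 over all libraries, from 0.0709 to 0.148, past the threshold without 1.5 months replicate 2 alone. The difference in clonotype number ran from -208 to -2 at 3 months, -364 to -158 at 5 months and -326.8 to -120.8 at 7 months, and that in the share of counts from 0.621 to 2.73, 0.790 to 6.01 and 0.629 to 2.74. The difference from 1.5 months in the share of TRAV12 counts in clonotypes above 0.1% ran at 7 months from 19.1 to 24.4 percentage points and passed without 7 months replicate 1 (adjusted p = 0.0257 by the exact permutation test). TRAV12-3 minus TRAV12D-3 ran from -0.538 to 0.175. The V genes called were 0 to 1, the 1 without 7 months replicate 5. Log2 fold changes at 7 against 1.5 months ran from -0.12 to 0.023 for TRAV12-1, -0.32 to 0.093 for TRAV12-3, -0.063 to 0.17 for TRAV12D-1, -0.56 to 0.46 for TRAV12N-2 and -0.10 to 0.17 for TRAV12N-3. At 7 against 3 months they ran from -0.085 to 0.025 for TRAV12-1, -0.36 to 0.012 for TRAV12D-3 and -0.065 to 0.88 for TRAV12N-2. Of all TRAV12 clonotypes, 1620 (17.9%) rested on a single count, which limits what can be said of rare clonotypes.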
